A study of Mus musculus with 8 samples.

Results

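The genes described here are 54 developmental transcription factor genes that lie outside the Hox clusters. They were chosen by name from the Pax, Gata, Tbx, Nkx, Dlx, Lhx, Isl, Msx, Otx, Gbx, Emx, En, Barhl, Foxa and Onecut families and from the family of Six2, Six3 and Six6. No methylation value entered the rule, but earlier results of these data were known when the genes were chosen. Each gene was given a window, its mm10 span plus 5 kb on either side, and CpG cytosines read at least 10 times in all 8 libraries were used. All 54 genes had such a window, of 17455 among 21887 protein-coding genes. DNA came from the brain tissue labelled dDG DGC layer of male C57 BL/6 mice. By the sample titles, 4 samples were from self-administration of cocaine and 4 from self-administration of saline. Each sample gave 1 bisulfite library of the reduced representation kind, which samples the CpG-rich fragments left by a restriction enzyme. A library is taken here as 1 mouse, which the sample titles do not state. Every level is the share of reads that were methylated, in percent, pooled over the cytosines of a window, and means are ± SD over n = 4 mice per group. A dissected layer holds several cell types, so methylation in fewer cells and lower methylation per cell cannot be told apart.

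These factors bind DNA and fix the identity of regions and cell types in the embryo. In cells that do not use them, their promoters are known for being held silent by Polycomb proteins across wide CpG-rich domains that carry little DNA methylation. A subset, such as Emx1, Emx2 and Lhx2, patterns the cerebral cortex and hippocampus, whereas others act in the ventral forebrain, the hindbrain, the spinal cord, the heart or the limbs.

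Coverage summed over listed cytosines was between 87964952 and 141775386 per library, a read counting once at each cytosine it covers. Of the cytosines listed in any library, 1510385 were common to all 8, or 48.7%. In saline 1, 14.3% of cytosines of pooled level 20 to 80% and 30 to 40 reads read as fully methylated or fully unmethylated, against 0.368 to 2.87% in the other libraries. Mean level over common cytosines ran from 36.5% in cocaine 3 to 38.3% in saline 4. The windows of the 54 genes held 11655 of these cytosines, 0.772%, at a median coverage of 52 to 88 reads. Start windows reach 1 kb either side of a start, or of both gene ends where no strand is known. Those of marker genes of hippocampal cell types had median levels of 0.922% (granule cell, 11 windows for 12 listed genes), 1.04% (CA pyramidal, 6 for 8) and 0.959% (interneuron, 6 for 9). They were 0.824% (astrocyte, 5 for 8), 2.98% (oligodendrocyte, 8 for 10), 9.73% (endothelial and mural, 4 for 8) and 20.7% (microglia, 2 for 8).

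The promoters show what such CpG-dense starts look like and where methylation was met. RefSeq promoter sequences of GRCm38.p6, whose coordinates equal those of mm10, run from 250 bases before to 50 bases after a start and were matched for 41 of the 54 genes. Pax3, Gata4, Gata6, Tbx2, Tbx3, Tbx5, Tbx15, Dlx3, Dlx5, Dlx6, Lhx5, Otx1 and En2 are named only. The motif searched was CG, which reads the same on both strands, and it was present in 95.4% of promoters of all protein-coding genes. The 52 promoters of the 41 genes held a median of 23 CG, against 13 over 21263 promoters of all protein-coding genes and 14.5 in those of Hox genes. In 32 of the 52, from 28 genes, some CpGs were read in all 8 libraries, and the pooled level was under 5% in 28, with a median of 0.991%. Below are 4 of them, 5′ to 3′, with CpGs read in all libraries in capitals. The Onecut1 and Tbx1 promoters came from start windows of low and high level, and those of Emx1 and Barhl1 were chosen after their values were seen.
Onecut1 promoter, chr9:74861671-74861970, plus strand: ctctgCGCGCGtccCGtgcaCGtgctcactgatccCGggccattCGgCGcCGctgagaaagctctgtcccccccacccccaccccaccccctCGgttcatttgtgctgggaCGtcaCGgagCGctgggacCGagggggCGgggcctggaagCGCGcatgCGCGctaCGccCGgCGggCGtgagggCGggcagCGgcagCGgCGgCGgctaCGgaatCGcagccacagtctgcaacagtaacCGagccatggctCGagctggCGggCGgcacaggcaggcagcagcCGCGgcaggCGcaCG
Emx1 promoter, chr6:85187681-85187980, plus strand: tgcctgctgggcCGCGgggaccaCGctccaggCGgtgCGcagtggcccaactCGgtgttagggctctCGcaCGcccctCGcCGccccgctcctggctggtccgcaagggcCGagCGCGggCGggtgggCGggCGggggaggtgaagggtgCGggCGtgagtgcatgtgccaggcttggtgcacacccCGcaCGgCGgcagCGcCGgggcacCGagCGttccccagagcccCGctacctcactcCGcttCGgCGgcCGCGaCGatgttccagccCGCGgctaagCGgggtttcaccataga
Barhl1 promoter, chr2:28916619-28916918, minus strand: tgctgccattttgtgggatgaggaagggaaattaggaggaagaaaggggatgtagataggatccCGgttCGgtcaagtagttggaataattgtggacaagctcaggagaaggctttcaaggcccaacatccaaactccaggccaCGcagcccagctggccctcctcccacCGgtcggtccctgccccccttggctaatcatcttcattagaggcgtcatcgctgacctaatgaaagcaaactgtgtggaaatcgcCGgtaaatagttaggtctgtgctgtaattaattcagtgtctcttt
Tbx1 promoter at the downstream start, chr16:18588850-18589149, minus strand: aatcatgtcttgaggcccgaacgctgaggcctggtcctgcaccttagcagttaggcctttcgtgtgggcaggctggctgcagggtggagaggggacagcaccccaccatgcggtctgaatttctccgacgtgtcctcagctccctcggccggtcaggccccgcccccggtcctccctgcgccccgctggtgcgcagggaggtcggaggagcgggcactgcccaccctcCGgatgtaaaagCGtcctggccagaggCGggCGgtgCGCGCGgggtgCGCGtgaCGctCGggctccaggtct
All 38 CG of the Onecut1 promoter were read and their pooled level was 0.624%, with no single cytosine above 4.79%. In the Emx1 promoter 35 of 37 CG were read, at 1.26%, with single cytosines between 0 and 3.73%. Both are denser in CG than most promoters, since 93.5% and 92.7% of all promoters held fewer. The Barhl1 promoter printed, at the upstream of 2 starts, held 9 CG, of which 5 were read at 14.6%, single cytosines ranging from 3.87 to 45.5%. The promoter at its other start had no CpG read in all libraries. Within 1 kb of both Barhl1 starts, 63 cytosines had a pooled level of 4.32%. The 11 CpGs read in the Tbx1 promoter, of 26, had a pooled level of 43.7%, between 20.1 and 58.5% at single cytosines. In the Tbx1 promoter the level was 42.4, 44.1, 53.3 and 44.5% in cocaine 1 to 4 and 41.8, 46.2, 39.8 and 42.8% in saline 1 to 4, so the groups overlapped. In the Barhl1 promoter it was 11.1, 13.6, 6.44 and 10.8% in the cocaine mice and 21.2, 10.5, 17.1 and 20.4% in the saline mice. There saline 2 lay among the cocaine mice, and the other 3 saline mice lay above all of them. These promoters were not tested on their own.

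Over whole windows the 54 genes had little methylation. The median of their pooled levels was 4.79%, 27 were under 5% and 46 were under 10%. Over all protein-coding genes with a window the median was 22.1%, and 28.4% of genes were under 10%. Hox genes, for comparison, had a median of 2.63% over 39 genes. Of the single cytosines in the 54 windows 86.4% were under 10%, 11% lay between 10 and 80%, and 2.60% were above 80%. The shares over all common cytosines were 49.7%, 20.3% and 29.98%. These are descriptions, and no test compared the genes with others.

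**Figure D1:**
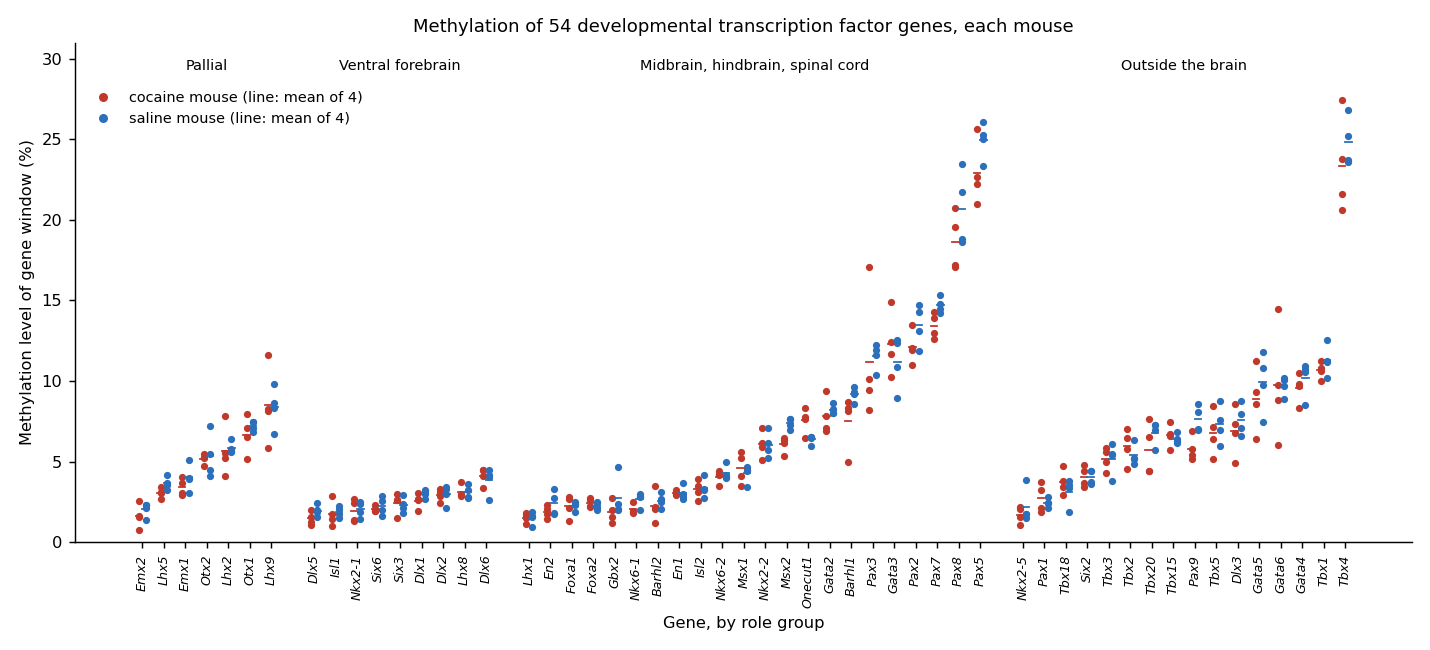
Methylation level of the gene window in percent (vertical axis) for each of the 54 genes, grouped by role and ordered by level within a group. Each point is 1 mouse, cocaine in red and saline in blue, and the short lines are group means; most genes lie under 10% in every mouse and Pax5, Pax8 and Tbx4 lie highest.

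The genes that act in the developing pallium, the source of cortex and hippocampus, had a median level of 5.28% over 7 genes. Emx2, a homeobox gene needed for hippocampal growth, was lowest of these, at 1.56, 1.61, 0.732 and 2.55% in cocaine 1 to 4 and 1.36, 2.11, 2.31 and 2.32% in saline 1 to 4. Lhx9, a LIM homeobox gene, was highest, at 5.86, 8.28, 8.17 and 11.6% in the cocaine mice and 6.69, 9.79, 8.66 and 8.32% in the saline mice. Cocaine 4 read highest in both genes and the groups overlapped in both. Emx1, Lhx2, Lhx5, Otx1 and Otx2 lay between, from 3.39% for Lhx5 to 6.99% for Otx1.

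The ventral forebrain genes were the least methylated role group, with a median of 2.36% over 9 genes and all 9 under 5%. Dlx5, which helps specify GABAergic neurons, was lowest, at 1.07, 1.98, 1.58 and 1.26% in cocaine 1 to 4 and 1.99, 1.84, 1.56 and 2.42% in saline 1 to 4. All 63 of its cytosines were under 10%. Isl1, which acts in striatal and motor neurons, stood at 1.74, 1.46, 1.02 and 2.84% in the cocaine mice and 1.47, 2.07, 2.22 and 1.72% in the saline mice. Dlx6, the neighbour of Dlx5, was highest of the group, at 4.5, 4.13, 3.39 and 4.46% in cocaine and 4.46, 4.05, 2.64 and 4.17% in saline. In each of these genes the groups overlapped. Dlx1 and Dlx2, a linked pair with related function, stood at 2.83 and 2.96%, and share 15 cytosines between their windows. Nkx2-1, which specifies the medial ganglionic eminence, Six3 and Six6, which act in eye and anterior forebrain, and Lhx8, of the cholinergic basal forebrain, lay between 2.00% and 3.14%.

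The genes placed with midbrain, hindbrain and spinal cord had a median of 5.22% over 22 genes and the widest range. The role groups were assigned for this description, and some genes here, such as Msx2, Onecut1 and Pax8, also act outside the brain. Lhx1 was the least methylated of all 54, at 1.67, 1.5, 1.09 and 1.78% in cocaine 1 to 4 and 0.949, 1.62, 1.56 and 1.85% in saline 1 to 4. Pax5, which marks the midbrain-hindbrain boundary and B cells, was highest of the group, at 21.0, 22.7, 22.2 and 25.6% in the cocaine mice and 25.3, 26.1, 23.3 and 25% in the saline mice. Pax8, a thyroid and kidney factor that also acts in the hindbrain, had 17.1, 20.7, 17.2 and 19.6% in cocaine and 18.8, 23.5, 21.7 and 18.6% in saline. The groups overlapped in all 3 genes. The midbrain-hindbrain genes En1 and En2 stood at 3.02 and 2.13%, the floor plate genes Foxa1 and Foxa2 at 2.25 and 2.32%, and the spinal cord genes Nkx6-1 and Nkx6-2 at 2.39 and 4.17%. Pax2, Pax3, Pax7 and Gata3 lay higher, between 11.3% for Pax3 and 14.1% for Pax7. Gata2, a partner of Gata3 in hindbrain and blood, stood at 8.03%.

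The genes that act mainly outside the brain had a median of 6.69% over 16 genes. Nkx2-5, a cardiac factor, was lowest, at 2.18, 1.04, 1.54 and 2.04% in cocaine 1 to 4 and 3.83, 1.75, 1.5 and 1.74% in saline 1 to 4. Saline 1 read highest there. Tbx4, the hindlimb T-box gene, was the most methylated of all 54, at 21.6, 23.8, 20.6 and 27.4% in cocaine and 25.2, 26.8, 23.7 and 23.6% in saline, and the groups overlapped. Its forelimb counterpart Tbx5 stood at 7%. The endoderm and heart factors Gata4, Gata5 and Gata6 lay close together, at 9.96, 9.38 and 9.75%. Pax1, Tbx18, Six2, Tbx3, Tbx2, Tbx20, Tbx15, Pax9, Dlx3 and Tbx1 filled the range from 2.53% for Pax1 to 11% for Tbx1, the pharyngeal arch gene.

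Low methylation reached far beyond the start. For each window the longest stretch of successive cytosines that were all under 10% was taken, counting across sequence that was not read. Its median over the 54 genes was 4933 bp and 70.5 cytosines, against 582 bp and 33 cytosines over all genes and 5998 bp for Hox genes. The longest was 27300 bp at Tbx5, with 62 cytosines, and the next 12621 bp at Pax2. The shortest was 764 bp at Gata5. Some long stretches rest on few cytosines, such as 4357 bp with 4 at Msx1 and 6747 bp with 8 at Otx2. A stretch was not required to hold a start. The median share of cytosines under 10% was 89.4% per window, against 64.0% over all genes.

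Levels were then taken by distance from the most upstream start, for the 41 genes with a start in the promoter table, as the mean over at least 3 cytosines of a gene in each bin. Within 500 bp upstream the median level was 0.863% in the 24 of the 41 genes read there, against 0.456% over all genes. Within 500 bp downstream it was 1.33% against 0.489%. Between 2 and 5 kb downstream it was 3.54% against 71.8%, and between 2 and 5 kb upstream 4.22% against 73.3%. These 2 bins were read in 34 and 30 of the 41 genes, but in only 3853 and 3418 of all 17492 genes with a start. Between 5 and 10 kb downstream the median was still 5.56% against 76.3%. Between 10 and 20 kb it came to 20.7% downstream and 47.4% upstream, against 73.3% and 72.1%. Hox genes stayed between 1.58 and 4.13% at all these distances.

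**Figure D2:**
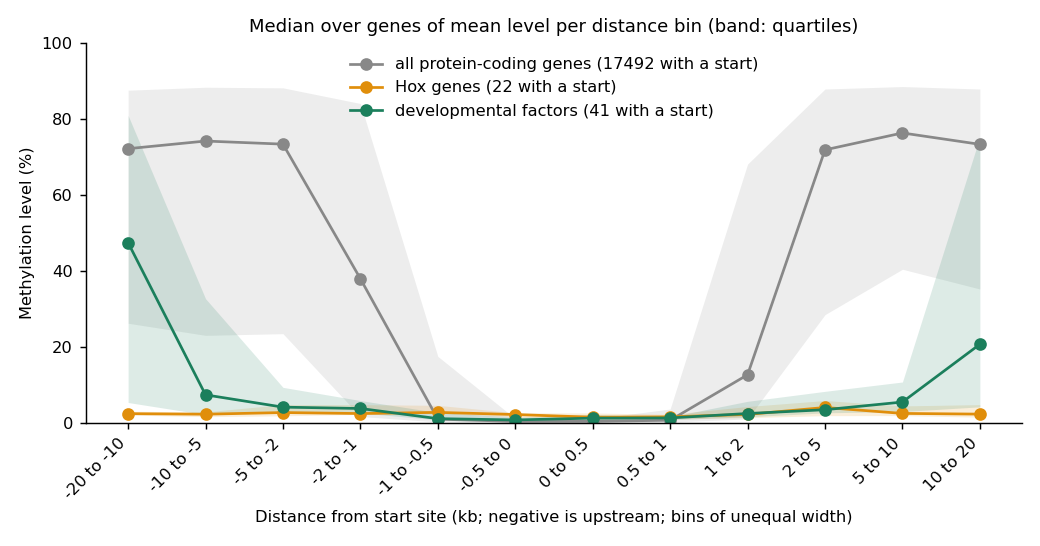
Median over genes of the level in each distance bin around the start (horizontal axis in kb, bins of unequal width; vertical axis level in percent), with the quartiles shaded, for the developmental factors in green, Hox genes in orange and all protein-coding genes in grey. Between 2 and 5 kb downstream the developmental factors sit at 3.54% and all genes at 71.8%, each over the genes read in that bin.

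The windows held 666 runs, a run being at least 3 CpGs with gaps of at most 100 bp. Of these runs 393, or 59.0%, were under 5%, and 74.5% were under 10%, 20.4% between 10 and 80% and 5.11% above 80%. Over all 125876 runs the shares were 21.8% under 5%, and 24.4%, 32.4% and 43.3% in the other 3 classes. All 24 runs that crossed an end of a gene were under 10%, with a median of 0.891%. The 34 runs above 80% came from 13 genes, led by Pax5 with 9, Pax2 and Pax7 with 5 each, Gata3 with 4 and Gata4 with 3.

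Pax2, Pax5, Pax7 and Gata3, the genes other than Gata4 with most of these runs, show the pattern along a gene. In Pax2, 23 of 39 runs were under 10%, among them all 18 within 5 kb of a start, and 5 runs more than 15 kb inside the gene were above 80%. At the far end of Pax2, 4 of 5 runs between 78 and 82 kb from the start were again low, at 2.66, 0.236, 0.841 and 2.88%. In Pax5, 8 of 29 runs were under 10%, including 1 each at 46.1 and 152 kb inside the gene, and 9 were above 80%. In Pax7, 14 of 33 runs were under 10%, and in Gata3 17 of 25, where all 14 upstream runs were under 10%. Within 5 kb of a start 18 of 18 runs were under 10% in Pax2, 2 of 3 in Pax5, 7 of 11 in Pax7 and 12 of 14 in Gata3.

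**Figure D3:**
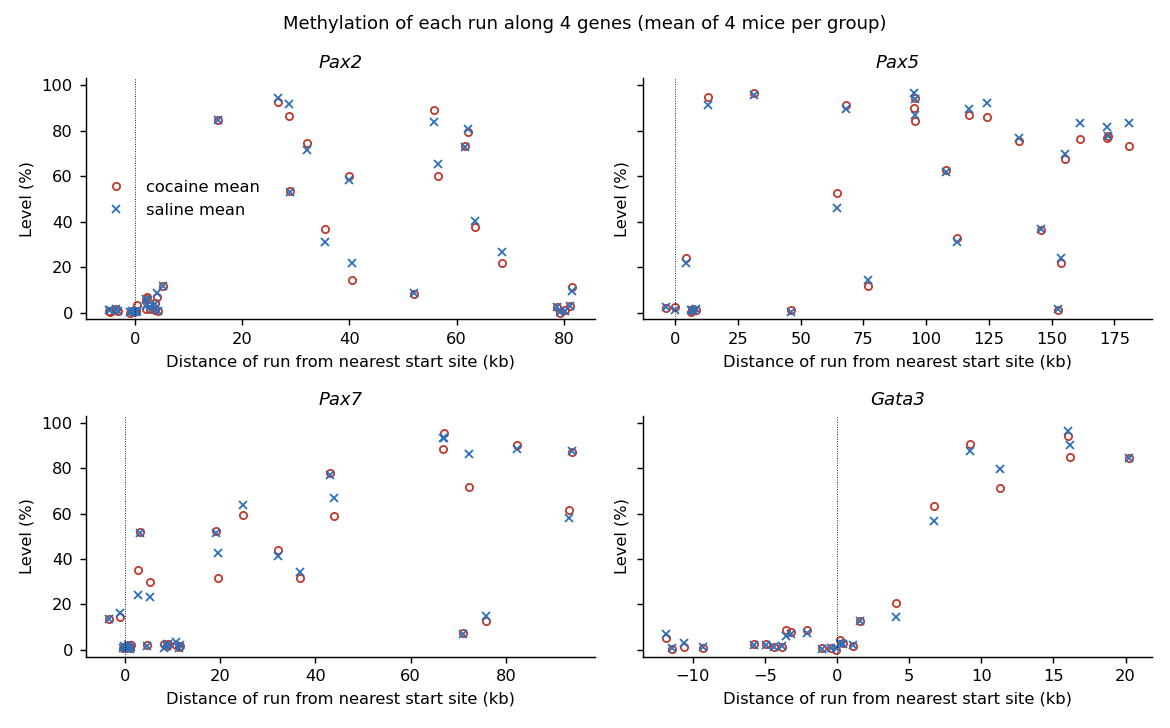
Level of each run in percent (vertical axis) against the distance of its middle from the nearest start in kb (horizontal axis, positive inside the gene direction) for Pax2, Pax5, Pax7 and Gata3. Red circles are cocaine means and blue crosses saline means of 4 mice; most runs within 5 kb of a start are under 10%, with 4 of 11 above it in Pax7, and runs further inside reach above 80%.

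Windows of 1 kb either side of the start held cytosines for 40 of the 41 genes with a known start, all but Tbx4. Their median level was 1.35%, with 30 under 2% and 37 under 5%, against a median of 0.764% over 10846 genes with a known start. The 3 above 5% were Pax8 at 36.0%, Tbx1 at 18.8% and Nkx2-5 at 5.84%. The Pax8 window, with 11 cytosines, read 35, 41.5, 33.0 and 46.2% in cocaine 1 to 4 and 27.3, 39.8, 37.4 and 37.2% in saline 1 to 4. The Tbx1 window covers both of its starts and read 20.4, 19.9, 18.7 and 17.6% in cocaine and 17.6, 20.03, 16.3 and 20.6% in saline. Both genes had overlapping groups. Where no strand was known, both ends of the gene were taken, and the upper end of Tbx5 stood at 79.0% while its lower end stood at 1.64%.

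The levels of cocaine and saline mice were then compared. No gene window passed the quasi-binomial test with limma-moderated dispersion, which asked for an adjusted p under 0.05 and at least 5 points, in the 54 genes or among all 17437 genes tested (0% called). At an unadjusted p under 0.05 there were 0 of the 54 (2 with limma on logit values), where the share over all genes was 5.4%, or 941 genes, 4.89% with a lower and 0.505% with a higher cocaine mean. The cocaine mean was the lower one in 38 of the 54 and the higher one in 16, and it was the lower one in 70.9% of all genes. The median difference was -0.278 points, with a range of -2.05 to 1.20 points, against -0.788 points over all genes. The difference was within 1 point in 42 of the 54. All 4 cocaine mice lay below all 4 saline mice in 2 genes, Pax9 and Msx2, where 3.23% of all genes did so, and above them in none, against 0.31%. The smallest unadjusted p was 0.0779, of Pax9, and the smallest adjusted p 0.875. Relative to the median of all genes, 11 of the 54 had a lower cocaine mean. That count does not compare like levels, since the median level was 22.1% over all genes and 4.79% in the 54. Differences in points have less room at low levels. Without cocaine 4, 2 of the 54 had an unadjusted p under 0.05, where 2509 of all genes did, 8 had groups that did not overlap (14.3% of all genes), and the median difference was -0.585 points against -1.60 over all genes. Without cocaine 3 the median difference was -0.0201 points against -0.329 over all genes, and 29 of the 54 had a lower cocaine mean, against 59.6% of all. Groups that did not overlap numbered 5 without cocaine 2 (6.14% of all genes), 5 without saline 2 (5.37%) and 4 without saline 1 (7.09%).

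**Figure D4:**
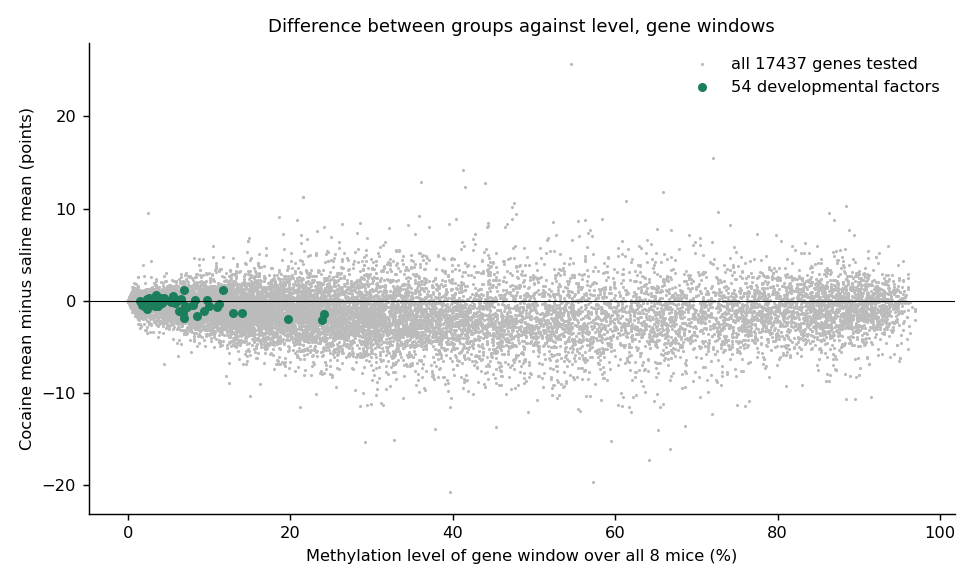
Difference between cocaine and saline means in points (vertical axis) against the pooled level of the gene window in percent (horizontal axis) for all 17437 genes tested in grey and the 54 developmental factors in green. The 54 sit at the low end of the level axis and between -2.05 and 1.20 points.

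The 4 windows of smallest p with a lower cocaine mean were those of Pax9, Msx2, Barhl1 and Gbx2. Pax9, a paired box gene of teeth and vertebrae at chr12:56691693-56712824, read 5.40, 6.87, 5.79 and 5.13% in cocaine 1 to 4 and 8.05, 7.02, 8.56 and 6.98% in saline 1 to 4. Msx2, a homeobox gene of skull and limb at chr13:53466881-53472780, read 5.36, 6.14, 6.35 and 6.49% in cocaine and 6.98, 7.28, 7.62 and 7.64% in saline. In both the lowest saline mouse lay just above the highest cocaine mouse, and the means were 5.80 ± 0.763 against 7.65 ± 0.779% in Pax9 and 6.08 ± 0.505 against 7.38 ± 0.314% in Msx2. Barhl1, a homeobox gene of cerebellum and inner ear at chr2:28907680-28917984, read 8.12, 8.67, 4.96 and 8.34% in cocaine and 9.64, 8.56, 9.22 and 9.34% in saline. Gbx2, of the anterior hindbrain, at chr1:89927962-89931176, read 1.56, 2.00, 1.16 and 2.73% in cocaine and 4.67, 2.03, 2.35 and 1.97% in saline. In Barhl1 cocaine 3 read far below all others, and in Gbx2 saline 1 read far above all others. The unadjusted p values were 0.0779, 0.139, 0.157 and 0.168, in that order, and none passed. At a coverage minimum of 20 the Pax9 difference was -0.744 points, against -1.86 as reported, and over the gene span alone it was -2.76. The Msx2 difference was -0.387 points over the span alone, against -1.30. The Barhl1 difference was -0.811 points without cocaine 3, against -1.66. The Gbx2 difference was -0.255 points without saline 1 and -1.68 over the span alone, against -0.893.

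The 4 windows of smallest p with a higher cocaine mean were those of Onecut1, Gata3, Tbx2 and Tbx18. Onecut1, of liver, pancreas and motor neurons, at chr9:74861921-74889648, read 7.79, 6.49, 7.67 and 8.31% in cocaine 1 to 4 and 6.53, 6.54, 6.45 and 5.96% in saline 1 to 4. Its means were 7.56 ± 0.769 and 6.37 ± 0.277%, and cocaine 2 lay among the saline mice. Its promoter, printed above, stood under 2% in every mouse. Gata3, of T cells and the hindbrain, at chr2:9857078-9887953, read 11.7, 12.4, 10.2 and 14.9% in cocaine and 8.95, 12.3, 10.9 and 12.6% in saline. Tbx2, of heart and limb, at chr11:85832615-85841948, read 5.76, 6.45, 4.55 and 7.01% in cocaine and 5.17, 6.36, 4.82 and 5.24% in saline. Tbx18, of epicardium and ureter, at chr9:87702800-87731260, read 3.44, 3.81, 2.94 and 4.74% in cocaine and 1.85, 3.52, 3.36 and 3.80% in saline. In Gata3, Tbx2 and Tbx18 cocaine 4 was the highest and the groups overlapped. The unadjusted p values were 0.184, 0.282, 0.345 and 0.448. Without cocaine 4 the differences were 0.263 points in Gata3 against 1.12, 0.189 in Tbx2 against 0.545 and 0.265 in Tbx18 against 0.601. Without saline 1 they were 0.377 in Gata3 and 0.173 in Tbx18. Without cocaine 3 they were 1.82 in Gata3 and 1.01 in Tbx2, and over the span alone Tbx18 stood at 0.0155 points.

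Of the 40 windows with a known start 22 had a lower and 18 a higher cocaine mean. No start window was called among all 14087 tested (0% called). Of the 59 windows at starts or ends of the 54 genes, 0 had an unadjusted p under 0.05 (1 with limma on logit values), against 6.3% of all (4.42% lower and 1.87% higher in cocaine), and the groups overlapped in all 59. Over all start windows, 2.51% had every cocaine mouse below and 0.646% every cocaine mouse above. The smallest unadjusted p was 0.0653, at the lower end of Dlx5, whose levels were 2.79, 2.79, 2.63 and 1.58% in the cocaine mice and 2.01, 6.3, 4.72 and 5.34% in the saline mice. There 3 saline mice lay above all cocaine mice and saline 1 lay among them. Without saline 1, 2 of the 59 windows had an unadjusted p under 0.05, without cocaine 2 it was 1, and without cocaine 3 it was 1. Of all 14087 windows 951, 774 and 750 did so, in that order.

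Of the 666 runs, 271 from 51 genes had a pooled level of 5 to 95% and were tested, and Dlx5, Lhx1 and Six6 had none. No run was called, in these genes or among all 92484 runs tested (0% called), at an adjusted p under 0.05 and at least 10 points. At an unadjusted p under 0.05 there were 21 of the 271, against 5.65% of all runs. Of these 13 had a lower cocaine mean (4.57% of all runs) and 8 a higher one (1.08% of all runs). Over the 271, the cocaine mean was the lower one in 145 and the higher one in 126, and it was the lower one in 61.8% of all runs. The median difference was -0.293 points against -1.06 points over all runs. The groups did not overlap in 8 runs with every cocaine mouse below, against 2.59% of all, and in 3 with every cocaine mouse above, against 0.701%. Without cocaine 1 the count at an unadjusted p under 0.05 was 11, where 4540 of all 92484 runs did so. All adjusted p values of these genes' runs were at least 0.876, and none of the 12 runs given next lies within 1 kb of a start or end.

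The 6 runs of smallest p with a lower cocaine mean lay in or near Pax9, Nkx6-1, Pax5, Gata2, Pax2 and Pax7. The Pax9 run, chr12:56709796-56709924, lies inside the gene and holds 6 CpGs. It read 30.6, 45.5, 42.1 and 18.0% in cocaine 1 to 4 and 72.3, 42.0, 59.7 and 45.2% in saline 1 to 4. The means were 34.1 ± 12.5 and 54.8 ± 14.0%, a difference of -20.7 points (SE 9.36, unadjusted p = 0.00492), and the groups overlapped. Mean coverage there was 19.8 to 61.6 reads per cytosine. The Nkx6-1 run, chr5:101667922-101668052, lies 3.28 kb upstream of this ventral spinal cord gene and read 6.36, 6.91, 2.51 and 3.13% in cocaine and 14.5, 7.94, 6.93 and 11.3% in saline. The difference was -5.43 points (SE 2.04, unadjusted p = 0.0139), and the groups met without overlap between 6.91 and 6.93%. The Pax5 run, chr4:44586355-44586557, lies 124 kb inside the gene and was highly methylated, with 83.8, 87.9, 84.7 and 88.3% in cocaine and 92.1, 90.6, 92.1 and 94.0% in saline. All cocaine mice lay below all saline mice there, by -6.06 points (SE 1.33, unadjusted p = 0.0207).

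The Gata2 run, chr6:88202424-88202628, read 20.6, 30.99, 35.5 and 24.5% in cocaine 1 to 4 and 31.5, 43.5, 39.7 and 33.4% in saline 1 to 4. Cocaine 3 lay among the saline mice, and the difference was -9.11 points (SE 4.34, unadjusted p = 0.0208). It was -3.71 points at a coverage minimum of 20, -4.67 with strands merged and -0.993 with gaps of up to 200 bp. The Pax2 run, chr19:44825146-44825589, was the deepest of these, at 90.1 to 171 reads per cytosine, and lies 68.5 kb inside the gene. It read 24.5, 21.5, 21.1 and 19.5% in cocaine and 25.7, 28.5, 27.6 and 24.8% in saline. The groups did not overlap, with a difference of -4.999 points (SE 1.35, unadjusted p = 0.0229). The Pax7 run of this direction, chr4:139813388-139813579, holds 3 CpGs and read 29.6, 27.6, 35.5 and 34.1% in cocaine and 45, 35.8, 40.2 and 49.6% in saline. Here too the groups did not overlap, at -10.9 points (SE 3.51, unadjusted p = 0.0267). Pax7, a dorsal neural tube and muscle stem cell factor, also held a run of the opposite direction.

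**Figure D5:**
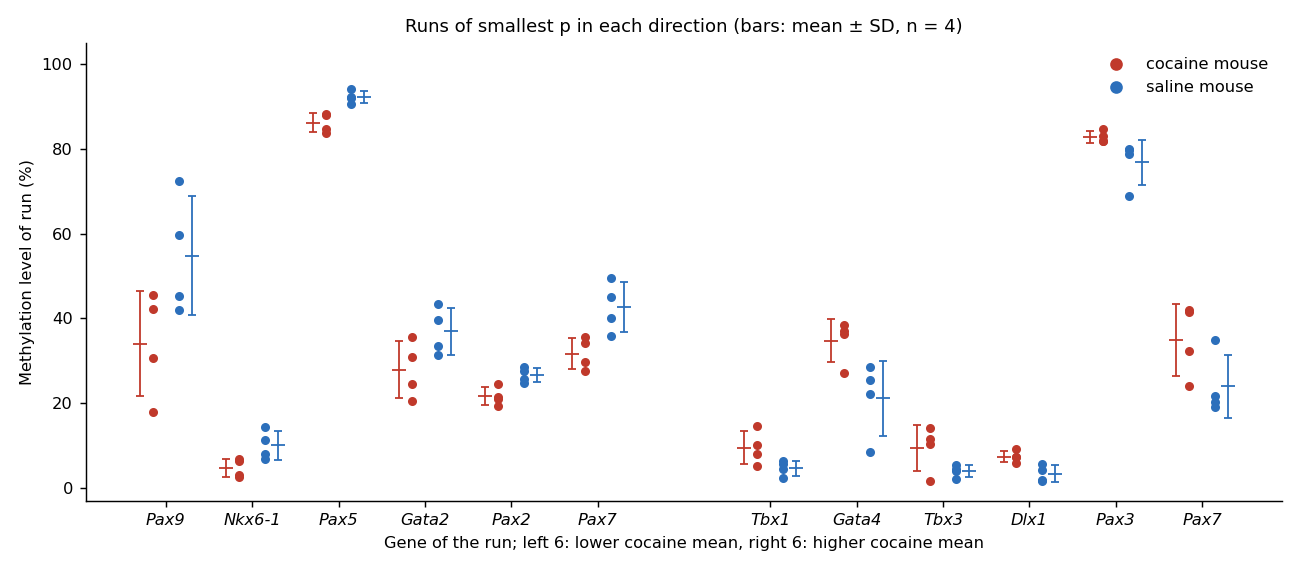
Methylation level in percent (vertical axis) of the 6 runs of smallest p with a lower cocaine mean (left) and the 6 with a higher one (right), named by gene on the horizontal axis. Points are mice, cocaine in red and saline in blue, and bars are mean ± SD of 4 mice; no run passed the adjusted threshold.

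The 6 runs of smallest p with a higher cocaine mean lay in or near Tbx1, Gata4, Tbx3, Dlx1, Pax3 and Pax7. The Tbx1 run, chr16:18582694-18582915, holds 15 CpGs inside the gene, 6.09 kb from a start. It read 8.13, 14.7, 5.23 and 10.1% in cocaine 1 to 4 and 2.31, 5.59, 6.39 and 4.54% in saline 1 to 4. Cocaine 3 lay among the saline mice and the difference was 4.82 points (SE 2.17, unadjusted p = 0.0100). The Gata4 run, chr14:63255347-63255403, read 27.2, 38.5, 36.3 and 36.9% in cocaine and 8.54, 28.6, 25.5 and 22.1% in saline. Cocaine 1 lay just under saline 2, saline 1 read far below the rest, and the difference was 13.5 points (SE 5.10, unadjusted p = 0.0109). The Tbx3 run, chr5:119687571-119687683, lies outside the gene and read 14.2, 11.6, 1.62 and 10.4% in cocaine and 4.05, 2.08, 5.35 and 4.55% in saline. Cocaine 3 was the lowest of all 8 there and the other cocaine mice the highest, at a difference of 5.43 points (SE 2.81, unadjusted p = 0.0171). With gaps of up to 200 bp, which join runs, the difference was 1.94 points at Gata4 and 2.35 at Tbx3, and without cocaine 2 it was 3.11 points at Tbx1.

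The Dlx1 run, chr2:71535027-71535200, lies outside the span of this interneuron gene, on the side of Dlx2, and read 9.15, 7.36, 5.81 and 7.35% in cocaine 1 to 4 and 1.67, 4.28, 1.92 and 5.73% in saline 1 to 4. All cocaine mice lay above all saline mice, by 4.02 points (SE 1.19, unadjusted p = 0.0192). The Pax3 run, chr1:78166344-78166522, read 81.8, 81.8, 82.9 and 84.6% in cocaine and 68.8, 79.9, 78.7 and 79.8% in saline. The groups did not overlap, at 5.97 points (SE 2.77, unadjusted p = 0.0363), with saline 1 well below the other saline mice, and without it the difference was 3.30 points. The second Pax7 run, chr4:139830256-139830349, lies 2.67 kb inside the gene and read 42.0, 32.3, 24.1 and 41.5% in cocaine and 21.7, 19.1, 34.9 and 20.2% in saline. Saline 3 lay among the cocaine mice and the difference was 10.98 points (SE 5.63, unadjusted p = 0.0390). Its coverage was the thinnest of the 12, down to 13.8 reads per cytosine in 1 library.

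Related genes outside the 54 were measured in the same way. Of 35 other members of the same families, 33 had a window, with a median level of 5.34% and a median difference of -0.254 points, and 0 had an unadjusted p under 0.05, where 5.4% of all genes did. Of 61 other developmental regulators the median level was 3.66% and the median difference -0.27 points, and 2 had an unadjusted p under 0.05, Hmx3 at 0.0413 and Zic5 at 0.0448. Hmx3 read 1.14, 0.857, 0.795 and 1.57% in cocaine 1 to 4 and 4.17, 4.72, 1.52 and 0.850% in saline 1 to 4, so saline 1 and saline 2 stood apart from the rest. Of 39 Hox genes 22 had a lower cocaine mean, against 70.9% of all genes, the median difference was -0.079 points and 0 had an unadjusted p under 0.05. The 21 genes of Polycomb complexes, DNA methyltransferases and Tet enzymes, which set or remove marks at such domains, had a median start window level of 0.703%. Of their gene windows 18 had a lower and 3 a higher cocaine mean, 1 had an unadjusted p under 0.05, and none was called, against the same 70.9% lower and 5.4% of all genes.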

How the data were processed

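The 8 libraries, 4 per group by the sample titles, were used, each taken as 1 mouse. Reads were converted with bcl2fastq and aligned to mm10 with Bismark 22.1, per the submitters' processing notes. How reads were trimmed, and whether duplicates were removed, is not given in the sources used here. The deposited level of each CpG cytosine is a fraction from 0 to 1, though per the file headers it is a percent, and coverage, as deposited, is a read count of 10 or more. Level times coverage gave whole methylated reads at 100% of cytosines, within 5e-07 times the coverage. Copies of few molecules cannot be told from separate reads, so errors were taken from the spread between mice. For each p this spread was moderated over all features, whereas the SD and SE given are those of the single feature.

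Gene spans, starts and strands came from RefSeq tables of GRCm38.p6; exons and introns were not analysed here. Gene windows and windows of 1 kb around starts (both gene ends without a strand) held at least 5 cytosines, and runs at least 3 CpGs. Methylated and unmethylated reads were fitted by quasi-binomial logistic regression on group over all features. Dispersion was moderated with limma 3.58.1 in R 4.3.3, as a trend over log coverage with a floor of 1. An F test and Benjamini-Hochberg adjustment over all genes, starts or runs followed. The test was run on simulated reads, with changes planted only in features of middle level. All 54 gene windows lie below that level, so recovery of changes at their levels was not measured.

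The genes and the lists were chosen with earlier results of these data known. Given with every mouse were the 6 runs and 4 gene windows of smallest p in each direction, the 3 lowest and 3 highest windows, the extremes of each role group and, from 3 related lists, 2 genes per direction. The rule for promoters took the 2 lowest and 2 highest start windows; those with no CpG read in all libraries (Tbx18, Pax8 and the second start of Tbx1) were left out, and Emx1 and Barhl1 were added after their values were seen. Alternatives covered the replicate number as a block, limma on logit values, coverage, strand merging, window, filter, gap, each mouse left out, equal weights and centring. The lowest mean chi-square between libraries was 4.74 over 28 pairs, so no library repeated another.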

Additional observations from a re-analysis of the deposited data

Results flagged for a closer look

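In 9 of 132 groups of 4 mice examined, the window or run of 1 mouse lay far from the other 3 of its group, and chance gives about 1 such group in 20. Saline 1, the library with the most fully methylated or unmethylated readings, was the distant mouse in 4 of them. It read 8.51% in the Gata4 window, where the other saline mice lay between 10.6 and 10.9%. It read 4.67% in the Gbx2 window against 1.97 to 2.35%, and 3.83% in the Nkx2-5 window against 1.5 to 1.75%. In the Pax3 run it read 68.8% against 78.7 to 79.9%. Whether the all-or-none readings have a part in these values was not tested.

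The other 5 came from 5 different mice. Cocaine 3 read 4.96% in the Barhl1 window, where the other cocaine mice lay between 8.12 and 8.67%. Cocaine 2 read 3.71% in the Lhx8 window against 2.89 to 3.00%. Cocaine 4 read 2.46% in the Nkx6-1 window against 1.83 to 1.90%. Saline 4 read 5.96% in the Onecut1 window against 6.45 to 6.54%. Saline 3 read 34.9% in the second Pax7 run against 19.1 to 21.7%.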

How the results depend on the processing

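No gene window, start window or run of the 54 genes was called under any alternative run. The count of gene windows at an unadjusted p under 0.05, 0 as reported, was 2 with limma on logit values, 1 over gene spans alone and 0 to 2 with 1 mouse left out. Over all genes these counts were 933 of 17437, 901 of 16002 and 589 to 2509 of 17437. For start windows it was 1 with limma, 2 at a coverage of 20, 1 in windows of 500 bp and 0 to 2 with 1 mouse left out. It was 1 without saline 1 and cocaine 3 together, an alternative chosen after seeing the data. Over all start windows it was 720 of 14087 with limma, 842 of 13083 at a coverage of 20 and 855 of 12826 in windows of 500 bp. With 1 mouse left out it was 750 to 1127 of 14087, and without saline 1 and cocaine 3 it was 834. For runs the count of 21 was 35 of 666 with no filter on level and 11 to 19 with 1 mouse left out. Over all runs it was 7567 of 125103 with no filter and 4540 to 5702 of 92484 with 1 mouse left out. Lower cocaine means numbered 20 of 27 genes at levels of 5 to 95%, 11 of 54 after centring on all genes and 29 to 41 with 1 mouse left out. Among runs they numbered 352 of 666 with no filter, 93 of 165 with at least 5 CpGs and 134 to 168 with 1 or both doubted mice left out. The median difference of -0.278 points was 0.509 after centring and between -0.585 and -0.0201 with 1 mouse left out. Centring took off the shift in points of genes with a higher median level, so its sign is not a gain in cocaine. Genes whose groups did not overlap numbered 4 over gene spans alone, where 3.57% of all genes did so. They numbered 2 to 8 with 1 mouse left out and 5 without saline 1 and cocaine 3. Over all genes the share was 3.54% with all 8 mice, 5.22% without cocaine 1 and 6.14% without cocaine 2. Without saline 1 and cocaine 3 together that share is not given here. The median level of 4.79% was 5.19% with equal weights, 3.97% over gene spans alone and 4.44% at a coverage of 20, and 4.66 to 5% with 1 mouse left out. Hoxb8 had a difference of -0.277 points over its span alone. The cause of these shifts was not tested.

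Correlations of same-numbered deviations between the groups lay between -0.0169 and 0.0772, and those of differing numbers between -0.139 and 0.0644. With so few mice these values cannot tell whether the replicate numbers stand for pairs. With the replicate block 1 run of all was called, none in the 54 genes. At an unadjusted p under 0.05 there were 0 gene windows, 0 start windows and 19 runs of the 54 genes. Over all features there were 926 of 17437 gene windows, 1723 of 14087 start windows and 5496 of 92484 runs. Depth limits thinly read runs, such as the second Pax7 run at 13.8 reads per cytosine in 1 library.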

Other observations

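Other related genes with the smallest p in their lists, none of which was called, gave these values. Tbx21, the T-box factor of T helper cells, had 24.5 ± 3.54% in cocaine and 28.5 ± 2.81% in saline mice. Onecut3, a relative of Onecut1, had 4.93 ± 0.384 and 5.98 ± 0.804%. Zic5, a dorsal neural tube gene, had 4.73 ± 1.41 and 7.56 ± 2.20%. Hoxd13 and Hoxa13, of the distal limb, had 2.11 ± 0.524 against 2.99 ± 0.647% and 1.88 ± 0.680 against 2.94 ± 1.34%. With the higher mean in cocaine, Nkx3-2 had 3.59 ± 0.614 and 2.71 ± 0.375%, Foxa3 29.95 ± 2.80 and 27.8 ± 2.97%, and Olig3 5.82 ± 1.80 and 4.33 ± 0.750%. Tlx3, of sensory neurons, had 2.50 ± 0.277 and 2.00 ± 0.291%, Hoxb8 3.35 ± 0.456 and 2.83 ± 0.442%, and Hoxc5 4.67 ± 1.76 and 3.61 ± 1.37%. Hoxb8 took the opposite sign over its span alone.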
